A study of Homo sapiens with 4 samples.

Results

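The heat shock protein genes followed here are 10 genes of the cytosolic and mitochondrial chaperone machinery, chosen by name from the 58735 genes in each deposited file. All 10 were found, each under 1 Ensembl identifier, and all 10 passed the filter on low values among the 14523 genes tested. They comprise HSPA1A, HSPA1B, HSPA8 and HSPH1 (cytosolic HSP70 and its HSP110 relative), DNAJB1 (a J-domain co-chaperone), HSP90AA1 and HSP90AB1 (cytosolic HSP90), HSPB1 (a small heat shock protein), and HSPD1 and HSPE1 (the mitochondrial chaperonin HSP60 and its co-chaperonin HSP10). RNA came from HCT116, an established human colorectal cancer cell line. The cells of all 4 libraries had received a small interfering RNA (siRNA) 48 h earlier. The siRNA was a control in 2 libraries and was directed against the kinesin KIF26B in the other two. Other assays of the study used a pair of siRNAs against KIF26B, and which was used in these libraries is not given in the sources used here. The value columns of the libraries labelled KIF26B siRNA are headed K_KD1_2 and K_KD2, so whether both hold the same siRNA is unknown, and the spread between them may include a difference between siRNAs. The labels do not say that the replicates were separate cultures, so a P value here measures only the spread between these libraries.

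Chaperones bind unfolded or partly folded proteins and help them to fold. HSP70 proteins bind short exposed stretches in cycles of ATP hydrolysis that J-domain proteins start and nucleotide exchange factors such as HSP110 end. HSP90 acts later, on kinases, steroid receptors and other clients close to their folded state, and small heat shock proteins hold unfolded proteins without using ATP. HSP60 and HSP10 form a chamber in the mitochondrial matrix in which imported proteins fold. Under heat or other protein stress, heat shock factor 1 (HSF1) binds heat shock elements, which are inverted repeats of the unit NGAAN, and raises transcription of many of these genes. In cancer cells several of them are made at high levels without heat.

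The elements are shown first because HSF1 acts through them, although they were not found before every one of the 10 genes. RefSeq promoters were found for all 10 genes by symbol, with 16 annotated starts, and the 250 bases before each start were searched on GRCh38.p14. The head-to-head pair GAANNTTC was present for 8 of the 10 genes, at 8 of 16 starts, against 5.78% of the 35116 RefSeq promoters. The tail-to-tail pair TTCNNGAA was present for 4 genes, at 4 of 16 starts, against 6.62% of promoters. Both motifs read the same on either strand. In the 3-unit element a head-to-head and a tail-to-tail pair share their middle unit in either order. It was present for 4 genes, at 4 of 16 starts, against 0.441% of promoters. These are matches of letters and were not tested for binding.

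The windows that carry a 3-unit element are printed 5′ to 3′ on the strand of the gene, with the units of the element in capitals. They lie at chr11:123062347-123062373 and chr11:123062172-123062198 (minus strand, HSPA8), chr14:102087113-102087139 (minus, HSP90AA1), chr6:44247771-44247797 and chr6:44247824-44247850 (plus, HSP90AB1) and chr2:197500063-197500089 (minus, HSPD1). The HSPD1 window holds 4 units in a row. It lies before start 2 of HSPD1 (197499840) and downstream of start 1 (197500274), before which no pair was found. The elements of HSP90AA1 and HSP90AB1 lie before start 2 and start 3, with no pair before their other annotated starts.
HSPA8, distal: cgagcttGAAagTTCcaGAAcgctgcg
HSPA8, proximal: gggccccTTCtgGAAggTTCtaagata
HSP90AA1: agggttcTTCcgGAAggTTCgggaggc
HSP90AB1, distal: gagcaggTTCtgGAAgaTTCatgggct
HSP90AB1, proximal: gagattgTTCtgGAAgcTTCtggattc
HSPD1: cattTTCtgGAAagTTCtgGAAccgag

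In HSPA1A, HSPA1B, DNAJB1 and HSPB1 head-to-head pairs were present that are not part of a 3-unit element, 2 before a start of DNAJB1 and 1 in each of the others. They are shown for comparison, at chr6:31815428-31815454 (plus strand, HSPA1A), chr6:31827624-31827650 (plus, HSPA1B), chr19:14518457-14518483 and chr19:14518427-14518453 (minus, DNAJB1) and chr7:76302482-76302508 (plus, HSPB1). In HSPH1 and HSPE1 neither pair was in the window searched. The HSPD1 element, within chr2:197500063-197500089, also lies upstream of the HSPE1 start (197500379, plus strand). It falls beyond the window searched for HSPE1, so the search does not show that HSPE1 lacks an element.
HSPA1A: aaaaccctgGAAtaTTCccgacctggc
HSPA1B: aaacccctgGAAtaTTCccgacctggc
DNAJB1, distal: ggcggggcgGAAggTTCtggagggggc
DNAJB1, proximal: cgggctctgGAAgcTTCcgccggacgg
HSPB1: ttaacgagaGAAggTTCcagatgaggg

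The deposited values are read as fragments per kilobase of exon, scaled to a fragment total of the library (FPKM). Whole reads recovered from the steps of these values summed to between 18867221 and 24431923 per library. Mitochondrial transcripts held 6.94% and 6.96% of them in the control siRNA libraries and 9.75% and 7.83% in the libraries labelled KIF26B siRNA. The recovered reads were 0.984 and 0.990 times the inferred scaling total in the controls. In the libraries labelled KIF26B siRNA they were 0.993 times it in replicate 1 and 1.044 times it in replicate 2. Whether this excess raises the values of replicate 2 was not tested, so small differences of that library are uncertain. All 7 epithelial markers examined were present, with a summed level of 1773 and 1789 FPKM in the controls and 1631 and 1713 FPKM in the libraries labelled KIF26B siRNA, whereas only CDX2 of the 5 intestinal markers reached a mean of 1 FPKM and CDX1 was listed at 0. Of 5 leukocyte markers and the 3 endothelial markers found of 4 listed, none reached a mean of 1 FPKM. Of 6 fibroblast markers only COL1A1 did, at 4.74 to 8.69 FPKM. KIF26B itself was at 0.110 and 0.205 FPKM in the controls and at 0.140 and 0.0307 FPKM in the libraries labelled KIF26B siRNA, so that replicate 1 of these lay between the controls. Directions below therefore compare libraries by their labels. The libraries labelled KIF26B siRNA also differed from each other more than the controls did, with a median absolute difference over all genes tested of 0.28 against 0.07 on the log2(FPKM + 1) scale.

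In the control siRNA libraries the 10 genes covered a wide range of levels per length. HSP90AB1, the constitutive cytosolic HSP90, was the highest at 971 ± 3.21 FPKM (SD, n = 2), above 99.8% of the genes tested. HSP90AA1, the HSP90 more readily induced by stress, followed at 369 ± 1.43 FPKM (SD, n = 2). HSPB1, HSPA8 and HSPD1 stood at 210 ± 5.77, 203 ± 1.32 and 159 ± 4.79 FPKM (SD, n = 2 each). DNAJB1 was at 63.1 ± 1.22 FPKM (SD, n = 2). HSPA1B, HSPE1 and HSPH1 were at 29.1 ± 3.12, 28.1 ± 1.19 and 20.8 ± 1.61 FPKM (SD, n = 2 each), and HSPA1A was the lowest of the 10 at 1.77 ± 0.15 FPKM (SD, n = 2). Among neighbours in this order, the control values of HSPA1B and HSPE1 overlapped. Those of HSPB1 and HSPA8 did not, but both pairs lay between 202 and 214 FPKM. Together the 10 genes held 0.662% and 0.656% of the summed FPKM in the controls and 0.639% and 0.646% in the libraries labelled KIF26B siRNA.

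**Figure D1:**
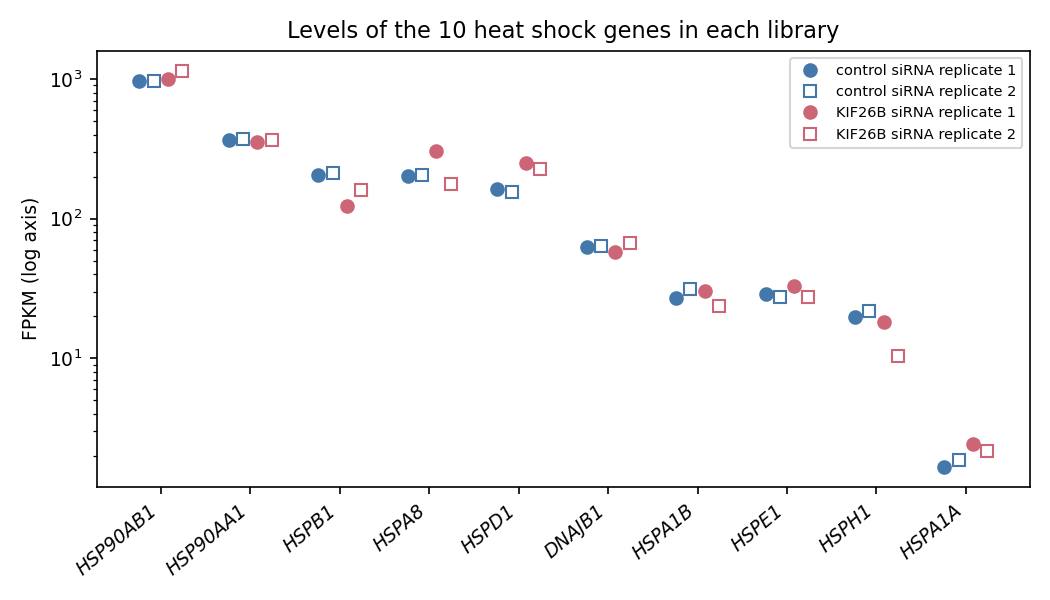
Level of each of the 10 genes in FPKM (log axis) in the 4 libraries, ordered by the control mean; blue points are control siRNA and red points KIF26B siRNA, filled for replicate 1 and open for replicate 2. HSP90AB1 and HSP90AA1 lay highest and HSPA1A lowest, and the red points left the blue ones most visibly for HSPB1, HSPD1, HSPA8 and HSPH1.

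The effect of the KIF26B siRNA was examined with limma on log2(FPKM + 1) over all genes tested, and differences below are on this scale, KIF26B siRNA minus control siRNA. After Benjamini–Hochberg adjustment over all 14523 genes no member passed 0.05, nor did any other gene (0 of 14523, 0%), and limma-voom on the recovered reads also called 0 genes. At an unadjusted P below 0.05, 2385 genes passed in limma and 2595 in limma-voom. Of the 10 members, 1 was lower at that P (HSPB1) and 1 was higher (HSPD1), where 8.68% and 7.74% of all genes tested were. None passed the study's thresholds, which add a log2 fold change beyond 1, against 0.606% of genes lower and 0.813% higher. In 3 members both libraries labelled KIF26B siRNA lay below both controls, in 3 they lay above both, and in 3 they lay on opposite sides of the controls, against 27.8%, 24.9% and 26.3% of all genes tested. These shares are near the background. The median difference of the 10 members was 0.033, against −0.013 for all genes tested.

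HSPD1, which encodes HSP60, was the member higher at an unadjusted P below 0.05. Its difference, that of HSPB1 and that of HSPH1 were close in size (0.58, −0.58 and −0.56), and which was the largest changed with the scaling and the pseudocount. Its values were 162 and 155 FPKM in the controls and 249 and 226 FPKM in the libraries labelled KIF26B siRNA, a mean of 237 ± 16.6 FPKM (SD, n = 2). Both of these libraries were above both controls, at 1.57 and 1.42 times the control mean. The difference was 0.58 (standard error 0.12, 95% interval 0.24 to 0.91, unadjusted P = 0.00874 and adjusted p = 0.242 from limma). With at least 13511 reads per library, counting error was at most 0.860% of each value.

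HSPE1, the HSP10 partner of HSP60, starts 104 bases away from HSPD1 on the opposite strand of chromosome 2 (RefSeq, GRCh38.p14), so that the pair shares a bidirectional promoter region. It was at 29.0 and 27.3 FPKM in the controls and at 33.1 and 27.3 FPKM in the libraries labelled KIF26B siRNA. Replicate 1 was above both controls and replicate 2 just below both. The difference of 0.091 had a 95% interval of −0.32 to 0.50 (adjusted p = 0.779 from limma). The ratio of HSPD1 to HSPE1 levels was 5.59 and 5.69 in the controls and 7.53 and 8.28 in the libraries labelled KIF26B siRNA. This ratio contains the HSPD1 values already given, so it is not a separate result. The level of HSPE1 is less certain than that of HSPD1: 17.9% of its exon bases lie within HSPD1 or the readthrough gene HSPE1-MOB4 in GENCODE, and 26 pseudogenes named after it held reads equal to 3.79% to 6.67% of its own.

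The other mitochondrial chaperones and proteases were read from a list of 19 genes, all tested. Of these, 2 were higher and none was lower at an unadjusted P below 0.05, where 7.74% and 8.68% of all genes tested were. Differences above 0 numbered 13 and those below 0 numbered 6, against 7033 and 7490 of all 14523 genes tested, with a list median of 0.046. With the replicate number as a block 1 was higher, where 1725 of the 14523 genes tested passed in either direction. With FPKM scaled to the same sum, which also lowered the median of all genes tested, 1 was higher and 2 were lower. HSPA9, the mitochondrial HSP70 (mortalin), was at 44.04 and 45.01 FPKM in the controls and at 57.5 and 62.0 FPKM in the libraries labelled KIF26B siRNA (difference 0.41, standard error 0.11, adjusted p = 0.265 from limma). AFG3L2, a subunit of an inner membrane protease, was at 8.18 and 7.18 against 11.3 and 11.6 FPKM (difference 0.53, adjusted p = 0.248 from limma). Both genes were higher in both libraries labelled KIF26B siRNA. LONP1, the matrix protease, had values of 37.7 and 58.7 FPKM against 32.5 and 33.7 FPKM in the controls, a difference of 0.50 that was carried mostly by replicate 2 (adjusted p = 0.395 from limma). CLPP, the proteolytic subunit of another matrix protease, was at 23.9 and 20.4 FPKM against 27.9 and 27.6 FPKM in the controls (difference −0.32, adjusted p = 0.340 from limma). The share of reads from mitochondrial transcripts, given above, was also higher in both libraries labelled KIF26B siRNA, and its part in these differences was not tested.

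HSPB1, which encodes the small heat shock protein HSP27, differed in the opposite direction. Its values were 206 and 214 FPKM in the controls and 123 and 160 FPKM in the libraries labelled KIF26B siRNA, a mean of 141 ± 25.6 FPKM (SD, n = 2). Both of these libraries were below both controls, at 0.589 and 0.761 times the control mean. The difference was −0.58 (standard error 0.17, 95% interval −1.05 to −0.10, unadjusted P = 0.0276 and adjusted p = 0.272 from limma). HSPB1 has no exon base in common with another gene, and its pseudogenes held at most 0.0813% as many reads. Of the 9 other small heat shock protein genes listed, 8 were found and only HSPB8 passed the filter, at 3.44 and 2.66 FPKM in the controls and at 3.08 and 5.84 FPKM in the libraries labelled KIF26B siRNA, with overlapping groups. CRYAB, another stress-induced member of the family, was below 0.5 FPKM in every library.

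HSPA8, the constitutive cytosolic HSP70 (HSC70), was split between the libraries labelled KIF26B siRNA. It was at 202 and 204 FPKM in the controls, at 304 FPKM in replicate 1 and at 177 FPKM in replicate 2. Replicate 1 was therefore at 1.496 times the control mean and replicate 2 at 0.870 times it. The difference of the groups was 0.19 with a 95% interval of −0.63 to 1.01 (adjusted p = 0.773 from limma). The libraries labelled KIF26B siRNA differed by 0.78 from each other, more than 89.3% of the genes tested, whereas control replicate 1 minus replicate 2 was −0.013. Without replicate 1 the difference of HSPA8 was −0.20, and without replicate 2 it was 0.58.

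HSPH1, the HSP110 protein that exchanges nucleotide on HSP70, was at 19.7 and 21.9 FPKM in the controls and at 18.2 and 10.3 FPKM in the libraries labelled KIF26B siRNA. Both of these were below both controls, replicate 1 by little and replicate 2 at 0.494 times the control mean. The difference was −0.56 (standard error 0.30, 95% interval −1.39 to 0.26, adjusted p = 0.414 from limma). It was −0.18 without replicate 2 and −0.95 without replicate 1, where it had an unadjusted P of 0.00434 and an adjusted p of 0.0472 from limma, a test in which 2254 genes were called and which sets the lone library labelled KIF26B siRNA replicate 2 against the controls. The spread in that test comes from the controls alone, whose median SD over genes was 0.052 against 0.198 between the libraries labelled KIF26B siRNA, so it carries no replicate check of HSPH1. The ratio of HSPA8 to HSPH1 levels was 10.3 and 9.31 in the controls and 16.7 and 17.2 in the libraries labelled KIF26B siRNA. This ratio was close between these libraries although each gene differed between them.

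HSPA1A and HSPA1B encode the stress-inducible HSP70 and lie 9795 bases apart on chromosome 6, in the major histocompatibility complex. They are nearly identical: 69.6% of the windows of 150 bases in the HSPA1A transcript, the read length given in the methods, occur in HSPA1B as well. A read from these windows cannot be assigned to either gene by itself, although its mate may place the pair. The separate levels of the 2 genes are therefore uncertain. HSPA1A was at 1.66 and 1.88 FPKM in the controls and at 2.41 and 2.16 FPKM in the libraries labelled KIF26B siRNA, from 81 to 128 reads per library. Both latter values were above both controls, but the counting interval of control replicate 2 (95% exact Poisson interval, 1.55 to 2.25 FPKM) overlapped those of both. The difference was 0.25 (95% interval −0.09 to 0.58, adjusted p = 0.392 from limma). HSPA1B was at 26.9 and 31.3 FPKM in the controls and at 30.4 and 23.5 FPKM in the libraries labelled KIF26B siRNA, with overlapping groups (difference −0.12, 95% interval −0.62 to 0.39). In GENCODE, 36.6% of the exon bases of HSPA1B lie within another gene, so its level and the sum of the pair are uncertain on this count too. For the pair together the sum was 28.6 and 33.2 FPKM in the controls and 32.8 and 25.6 FPKM in the libraries labelled KIF26B siRNA. Averaged into 1 value, the pair had a difference of −0.081, so the direction seen for HSPA1A alone is not that of the pair. HSPA6, an HSP70 gene that is nearly silent without heat, was listed above 0 in control replicate 1 only, at 0.0215 FPKM.

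HSP90AA1 and HSP90AB1 differed little. HSP90AA1 was at 368 and 370 FPKM in the controls and at 355 and 364 FPKM in the libraries labelled KIF26B siRNA, a difference of −0.041 with a 95% interval of −0.34 to 0.26 (adjusted p = 0.870 from limma). HSP90AB1 was at 973 and 968 FPKM in the controls and at 1006 and 1151 FPKM in the libraries labelled KIF26B siRNA, a difference of 0.15 with a 95% interval of −0.20 to 0.50 (adjusted p = 0.596 from limma). The values of HSP90AA1 were below and those of HSP90AB1 above both controls in both libraries, and neither passed the unadjusted threshold. The ratio of HSP90AB1 to HSP90AA1 levels was 2.64 and 2.61 in the controls and 2.84 and 3.16 in the libraries labelled KIF26B siRNA. DNAJB1, which stimulates HSP70 and is itself induced by heat, was at 62.3 and 64.0 FPKM in the controls and at 57.7 and 66.6 FPKM in the libraries labelled KIF26B siRNA. Its values lay on opposite sides of the controls, with a difference of −0.025 and a 95% interval of −0.39 to 0.34 (adjusted p = 0.934 from limma).

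The 4 members with a 3-unit element in the window searched before a start did not share a direction. Their differences were 0.58 for HSPD1, 0.19 for HSPA8, 0.15 for HSP90AB1 and −0.041 for HSP90AA1. Those of the 6 other members lay between −0.58 and 0.25. HSPE1 is counted among the other members, although the HSPD1 element lies upstream of its start, beyond the window searched. Heat shock factors were read from a list of 13 factors and regulators, of which 11 were tested. HSF1, which drives the heat shock response, was at 24.9 and 25.1 FPKM in the controls and at 23.8 and 25.9 FPKM in the libraries labelled KIF26B siRNA (difference −0.0082, 95% interval −0.33 to 0.31). HSF2 was at 8.99 and 8.89 FPKM in the controls and at 10.0 and 14.3 FPKM in the libraries labelled KIF26B siRNA, both above both controls (difference 0.39, standard error 0.20, adjusted p = 0.407 from limma). HSF4, a heat shock factor best known from the lens, had the largest difference of the list, at 3.55 and 3.80 FPKM in the controls and 4.98 and 8.36 FPKM in the libraries labelled KIF26B siRNA (difference 0.68, standard error 0.25, adjusted p = 0.311 from limma). Its unadjusted P was 0.0559 in limma and 0.0338 with the replicate number as a block. SIRT1, a deacetylase that acts on HSF1, was the only gene of the 11 tested at an unadjusted P below 0.05 in limma. It was lower, where 8.68% of all genes tested were lower and 7.74% higher at that P. SIRT1 lost this call with the block (unadjusted P = 0.0553 from limma). It was at 8.45 and 8.61 FPKM in the controls and at 6.41 and 5.46 FPKM in the libraries labelled KIF26B siRNA (difference −0.46, standard error 0.13, adjusted p = 0.265 from limma).

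Genes known to be induced by heat, other than the 10, were read from a list of 28 genes, of which 25 were tested. At an unadjusted P below 0.05, 5 were lower and 2 were higher, where 8.68% and 7.74% of all genes tested were. With the replicate number as a block 2 were lower and 1 was higher, where 1725 of the 14523 genes tested passed in either direction. In 13 both libraries labelled KIF26B siRNA lay below both controls and in 3 they lay above, against 27.8% and 24.9% of all genes tested. The median difference was −0.16, against −0.013 for all genes tested. HSPA4L, an HSP110 relative, was at 5.30 and 4.92 FPKM in the controls and at 3.04 and 2.74 FPKM in the libraries labelled KIF26B siRNA (difference −0.65, standard error 0.12, adjusted p = 0.242 from limma). CHORDC1, an HSP90 co-chaperone, was at 10.5 and 10.7 against 7.39 and 6.04 FPKM (difference −0.60, standard error 0.14, adjusted p = 0.248 from limma). DNAJB6, a J-domain protein that holds back aggregation, was at 9.27 and 9.48 against 7.07 and 6.94 FPKM (difference −0.37, adjusted p = 0.272 from limma). ST13, which links HSP70 to HSP90, went the other way, at 57.8 and 59.1 FPKM in the controls and 77.8 and 78.3 FPKM in the libraries labelled KIF26B siRNA (difference 0.41, adjusted p = 0.258 from limma). BAG3, named here after its values were seen because it is a sensitive target of HSF1, was at 45.1 and 47.7 FPKM in the controls and at 40.5 and 43.3 FPKM in the libraries labelled KIF26B siRNA (difference −0.14, adjusted p = 0.576 from limma).

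Among the partners of HSP70, 23 further cytosolic J-domain genes were tested, of which 2 were lower (DNAJB6 and DNAJC9) and none was higher at an unadjusted P below 0.05, a share near that of all genes tested (8.68% lower and 7.74% higher). Their median difference was −0.15, with 18 differences below 0 and 5 above, against 7490 and 7033 of all 14523 genes tested. Of 11 nucleotide exchange and co-chaperone genes, ST13 was higher at that P and none was lower, with a median of −0.028. With the replicate number as a block, none of these J-domain, exchange and co-chaperone genes passed, where 1725 of the 14523 genes tested did. HSPBP1, an exchange factor, was at 26.5 and 25.4 FPKM in the controls and at 21.5 and 19.5 FPKM in the libraries labelled KIF26B siRNA (difference −0.33, adjusted p = 0.307 from limma). Among 9 other HSP70 and HSP110 genes tested, 1 was lower (HSPA4L) and 1 was higher (HSPA9).

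Of the 24 HSP90 co-chaperone genes listed, 22 were tested. At an unadjusted P below 0.05, 4 were lower and 3 higher, where 8.68% and 7.74% of all genes tested were, with a median of −0.015. With the replicate number as a block 2 were lower and 3 higher, where 1725 of the 14523 genes tested passed in either direction. NUDCD3, a protein with a CS domain like that of other HSP90 partners, was at 4.26 and 4.18 FPKM in the controls and at 8.41 and 7.45 FPKM in the libraries labelled KIF26B siRNA (difference 0.77, standard error 0.12, adjusted p = 0.242 from limma). UNC45A, a chaperone of myosin that binds HSP90, was at 13.6 and 13.1 against 18.8 and 19.7 FPKM (difference 0.50, adjusted p = 0.243 from limma). TOMM34, a co-chaperone of mitochondrial import, was at 23.0 and 26.0 against 34.8 and 36.3 FPKM (difference 0.52, adjusted p = 0.248 from limma). CHORDC1, given above, was among the lower genes. The lists overlap: CHORDC1, HSPA4L, DNAJB6, ST13 and HSPA9 each stand in another list as well, so the counts of different lists are not independent.

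The cytosolic chaperonin and prefoldin genes, which fold actin and tubulin, gave 0 of 15 tested genes at an unadjusted P below 0.05 in limma, with a median of −0.12. This count depended on the test: 4 were lower with a variance trend, 4 with limma-voom and 5 with FPKM scaled to the same sum, and none was higher. The share of all genes lower was 8.68% in the reported fit and was not counted under these settings. Scaling to the same sum also lowered the median of all genes tested, so these counts have no background to be read against. In 7 of them both libraries labelled KIF26B siRNA lay below both controls and in 3 above, against 27.8% and 24.9% of all genes tested. CCT2 was at 84.6 and 84.4 FPKM in the controls and at 70.9 and 58.9 FPKM in the libraries labelled KIF26B siRNA (difference −0.38, adjusted p = 0.310 from limma). For comparison with another compartment, 16 endoplasmic reticulum chaperone genes were tested, of which 2 were lower and 1 was higher at that P, where 8.68% and 7.74% of all genes tested were, with a median of −0.020. SDF2L1 (66.0 and 71.1 against 50.2 and 45.4 FPKM) and DNAJB11 (11.2 and 12.1 against 8.74 and 6.75 FPKM) were the lower genes, and SIL1, an exchange factor of the reticulum's HSP70, was the higher one (4.90 and 5.19 against 8.83 and 8.22 FPKM), with adjusted p-values of 0.248, 0.273 and 0.242 from limma. That the endoplasmic reticulum and cytosolic lists differ was not tested.

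The genes whose pattern over the 4 libraries was most like that of HSPD1, by Euclidean distance of centred log2(FPKM + 1) among the 4640 other genes averaging 10 FPKM or more, were RPL21P16 (distance 0.0502), MID1IP1 (0.0618) and CMBL (0.0652). MID1IP1 was at 19.9 and 19.3 FPKM in the controls and at 32.4 and 29.6 FPKM in the libraries labelled KIF26B siRNA. CMBL was at 15.7 and 15.8 against 26.0 and 22.4 FPKM. RPL21P16 is a ribosomal protein pseudogene, whose reads may come from near-identical copies.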

How the data were processed

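Poly(A) mRNA of HCT116 cells was sequenced as paired-end reads and aligned with HISAT2 2.0.5, and the submitters' processing notes also name featureCounts 1.5.0-p3. The methods name hg19 and the processing notes hg38; the annotation release is not given in the sources used here. The values the authors deposited are FPKM, 1 per gene and library, a unit read from the values themselves. Symbols came from a reference table of Ensembl identifiers (56513 of 58735 matched). Exon overlaps and shared windows used GENCODE on GRCh37, whereas coordinates and promoter sequences are RefSeq's, on GRCh38.p14, matched by symbol.

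Groups and replicate numbers came from the sample titles. limma 3.58.1 in R 4.3.3 was fitted to log2(FPKM + 1) of the 14523 genes averaging 1 FPKM or more over the libraries, with no covariate, with Benjamini–Hochberg adjustment over all of them. It had 2 residual and 2 prior degrees of freedom. With 2 libraries per group an exact permutation test cannot go below p = 0.333 (two-sided) and was not run. The log2(FPKM + 1) scale understates differences of low genes.

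Whole reads were recovered for 99.6% of the 34638 genes above 0 FPKM, within 0.005 of a whole number, by searching for a length that gave whole reads in all libraries. The solution can be a whole fraction of the true count, or a multiple of it where the annotated or the nearest length was taken. Counting errors are therefore approximate, and they cover counting error only. Of 2000 genes searched after their values were moved by up to 1%, 2 gave whole reads.

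The members and lists were chosen with earlier results of these data known. Genes named are the 10 members, HSF1, HSF2, KIF26B, at most 4 genes of each list with the smallest unadjusted P, any gene of a list past the study's thresholds, and 3 genes like the leading member in pattern; others are said to be named after their values were seen. HSPA6, CRYAB and the marker genes are given to show levels. Alternatives were the replicate block, other filters, a pseudocount of 0.1 FPKM, a variance trend, median-of-ratios scaling, limma-voom, HSPA1A and HSPA1B averaged, and each library left out; scaling to the same FPKM sum was chosen after seeing the data. The fit was tested on data simulated with the same spread in both groups. That test does not cover the unequal spread of these libraries (median SD 0.052 in the controls and 0.198 between those labelled KIF26B siRNA). A gene of the heat-induced list is not reported here by name.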

Additional observations from a re-analysis of the deposited data

How the results depend on the processing

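HSPD1 stayed higher and HSPB1 lower under every alternative run. The largest difference among the members was that of HSPD1 in the reported fit (0.58), of HSPB1 with median-of-ratios scaling (−0.58) and with FPKM scaled to the same sum (−0.71), and of HSPH1 with a pseudocount of 0.1 FPKM (−0.60) and limma-voom (−0.60). HSPD1 and HSPB1 kept their directions, with differences from 0.51 to 0.65 and from −0.76 to −0.39 when 1 library was left out. Leaving out a library moved the count of members lower at an unadjusted P below 0.05 from 1 to between 0 and 2, and that of members higher from 1 to between 0 and 3. It was 0 without either control, where the lone control is assumed to vary like the other group. The median difference of the members ranged from −0.033 to 0.058 over these fits, and was lowest without KIF26B siRNA replicate 1. Without that library limma called 2254 genes at an adjusted p below 0.05, and 0 under each other alternative that gave a count. At an unadjusted P below 0.05, 6741 genes passed without KIF26B siRNA replicate 1, 5813 without replicate 2, 544 and 518 without control replicate 1 or 2, and 4378 with no filter on low values, where more genes were tested. Of the 8 members whose 95% intervals include 0, 4 changed sign with 1 library left out: HSPA8 ranged from −0.20 to 0.58, DNAJB1 from −0.13 to 0.077, HSPE1 from −0.044 to 0.23, HSPA1B from −0.30 to 0.063, and among other genes HSF1 from −0.068 to 0.052. Scaling to the same FPKM sum moved the median of all genes tested from −0.013 to −0.12, that of the members to −0.095 and HSPE1 to −0.036, so the members stayed close to all genes. With HSPA1A and HSPA1B averaged the difference of HSPA1A became −0.081. Same-numbered libraries did not deviate together (correlation −0.003 across genes), and with the replicate block 1725 genes passed the unadjusted P in place of 2385. The block changed no call of a member but ended the unadjusted calls of SIRT1 (0.0553), HSPA9 (0.0661), DNAJB6 (0.0858), DNAJC9 (0.0669) and ST13 (0.0662) among those named. For the members it left an unadjusted P from limma of 0.0248 for HSPD1 and 0.0332 for HSPB1, and an adjusted p of 0.398 and 0.406. KIF26B had 8 to 73 reads per library, which limits what its own level can show.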

Other observations

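Of the 132 tested genes of the chaperone lists, 35 had the libraries labelled KIF26B siRNA on opposite sides of the controls, where 26.3% of all genes tested did. In 15 of them replicate 1 was above and replicate 2 below, as for HSPA8, and in 20 the reverse held. DNAJA1, a J-domain partner of HSPA8 named after its values were seen, was at 51.9 and 52.1 FPKM in the control siRNA libraries, at 58.1 FPKM in KIF26B siRNA replicate 1 and at 31.0 FPKM in replicate 2. AHSA1, which stimulates the ATPase of HSP90 and was also named after its values were seen, was at 34.9 and 34.9 FPKM in the controls and at 46.9 and 31.8 FPKM in the same order. HSP90B1, the HSP90 of the endoplasmic reticulum, was split the other way and was likewise named after its values were seen, at 179 and 179 FPKM in the controls and at 150.2 and 223 FPKM. The difference between the 2 libraries labelled KIF26B siRNA cannot be tested, as each is 1 library.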
